A study of Mus musculus with 4 samples.

Results

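A set of 248 noncoding transcripts that carry only provisional names was described in mouse pancreatic islets kept at low or high glucose. Such names end in Rik, for a cDNA of the RIKEN collection, or start with Gm and a number, for a predicted gene model. The transcripts were selected on 4 conditions from the deposited expression table, namely a RefSeq accession of the noncoding class (NR_), a Rik or Gm symbol, no coding (NM_) entry under the same symbol, and a mean of at least 1 RPKM over the 4 libraries. RPKM scales the reads of a transcript to its length and to the depth of the library. The length used here was found to be the genomic span, introns included, so a level also depends on the introns of a transcript. The name conditions were met by 1727 of the 24157 symbols of the table, and 1479 of these were below the level, 87 of them at 0 in every library. The transcripts were thus chosen by their mean RPKM, so levels are given as a description, whereas the difference between glucose concentrations was not used in the choice. Just inside the limit lay 4933439C10Rik (1.0178 RPKM), Gm13003 (1.0125) and 4921531C22Rik (1.0015), and just outside lay A930013F10Rik (0.9865), 1810021B22Rik (0.9756) and 4930473A02Rik (0.9575).

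The islets came from male C57bl6 mice of 3 months, pooled over animals, and held beta cells together with alpha, delta and other cells. All were kept overnight at 11 mM glucose and then for 2 h at 2.8 mM glucose, after which one group stayed at 2.8 mM and the other was moved to 16.8 mM glucose, with 2 libraries of 100 islets each per group. The series design and the methods give 12 h for both groups, while the sample labels give 2 h at 2.8 mM and 12 h at 16.8 mM, so that time and glucose may not be separable. The paper states that the stimulated and the control islets shared a pool, so spread between separate pools of animals was not measured. Nothing says that the 2 libraries of a group came from separate cultures. The p-values thus measure only the spread between these samples, which may be technical. As a check of the tissue, the 6 beta cell markers (Ins1, Ins2, Iapp, Ucn3, Mafa and Slc2a2) summed to 22898 and 20550 RPKM at 2.8 mM and to 43707 and 40932 RPKM at 16.8 mM. Glucagon (Gcg), the alpha cell hormone, stood at 1904 RPKM at 2.8 mM and 1787 RPKM at 16.8 mM. In such a mixture, fewer cells of a type and less RNA per cell cannot be told apart.

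Depth was recovered from the values themselves and was between 50800000 and 60700000 reads per library. The 8 exocrine markers summed to 103 and 293 RPKM at 2.8 mM and to 249 and 514 RPKM at 16.8 mM, higher in the second library of each group, and 0 of the 8 passed the test. Of 3 genes known to respond to glucose, 2 were higher and 1 was lower at 16.8 mM. Txnip, a brake on glucose uptake and an inhibitor of thioredoxin, stood at 7.73 and 7.20 RPKM in the 2.8 mM libraries and at 30.5 and 29.1 RPKM in the 16.8 mM libraries. Pdx1, a transcription factor of beta cells, had a log2 fold change of 1.30 ± 0.12 (SE, limma adjusted p = 0.000595). Pklr, a pyruvate kinase known as a glucose-induced gene, went the other way, from 1.48 and 1.38 RPKM to 0.945 and 0.932 RPKM (-0.42 ± 0.08, adjusted p = 0.00704).

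Long noncoding RNAs are made and often spliced like messenger RNAs but carry no long reading frame. Many start next to, or run opposite to, a coding gene, some carry a small nucleolar RNA or microRNA within their span, and others are processed pseudogenes, copies of a messenger RNA that were reinserted into the genome. The last kind can be nearly identical to its coding gene, so that short reads cannot always be assigned to one of them. A transcript that overlaps a coding gene on the opposite strand meets a similar limit wherever the strand of a read is unknown, as in libraries made with the kit used here.

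All these kinds were present. A later RefSeq table (assembly GRCm38.p6) holds 246 of the 248 transcripts, and lists 168 of them as lncRNA, 66 as transcribed pseudogenes, 2 as pseudogenes, 9 as coding and 1 as a small nucleolar RNA. The label noncoding thus no longer held for 9 transcripts, among them 1500011K16Rik, now Mtln, which encodes a small mitochondrial peptide. A different current symbol was found for 25 transcripts, for example Norad for 2900097C17Rik, Snhg15 for Gm11974 and Snhg17 for 9430008C03Rik. Placed against the annotation, 108 of the transcripts overlapped a coding gene on the opposite strand, 11 overlapped one on the same strand and 11 overlapped one with no strand resolved. A further 28 lay head to head with a coding gene, which means that the starts lay within 1000 bases on opposite strands without overlap. The remaining 89 placed transcripts lay between genes, and 1 was not placed.

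The levels were low for most transcripts and very high for a few. The median of the 248 means was 2.27 RPKM, 109 transcripts lay between 1 and 2 RPKM, 33 were at 10 RPKM or more, and 3 reached 100 RPKM. Gm1821, a pseudogene of ubiquitin B, supplied 39.5% of the summed level of all 248. The sum was 3234 and 2846 RPKM at 2.8 mM and 3010 and 2864 RPKM at 16.8 mM, which is between 2.47% and 3.15% of the table's total. Without Gm1821 it was 2017 and 1817 RPKM at 2.8 mM and 1750 and 1650 RPKM at 16.8 mM.

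Among the 10 highest transcripts, 9 are listed as pseudogenes. As the values are scaled to the span with introns, levels of transcripts with and without introns are not directly comparable, and this order is a description only. Gm1821 (Ubb) was followed by Gm6548, a copy of the translation elongation factor Eef1a1, by Gm12338 and Gm10012, copies of the cytochrome c oxidase subunit Cox7c, by Gm6682, a copy of the tubulin Tuba1a, and by Gm6654, Gm15772 and Gm15421, copies of the ribosomal protein genes Rps26, Rpl26 and Rpl22l1. A730098P11Rik is now listed as a pseudogene of Morf4l1, a chromatin factor. The exception was B830017H08Rik, an lncRNA between genes, at 46.1 and 44.5 RPKM in the 2.8 mM libraries and at 55.2 and 51.5 RPKM in the 16.8 mM libraries. Its groups did not overlap, but it did not pass the test (log2 fold change 0.23 ± 0.13 SE, limma adjusted p = 0.191).

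The comparison of 16.8 mM with 2.8 mM glucose asked which of these transcripts differ after glucose stimulation. It was made with limma on log2(RPKM + 0.5) over all 7867 transcripts whose 4 libraries averaged 1 RPKM or more, with 2 libraries against 2 and a Benjamini-Hochberg adjusted p under 0.05. Fold changes on this scale understate those of low transcripts. At 16.8 mM, 21 of the 248 transcripts were higher, 67 were lower and 160 did not pass the test. The share called was thus 35.5%, against 33.4% of all transcripts tested. By direction, 8.47% of the 248 were higher, against 10.7% of all transcripts tested, and 27.0% were lower, against 22.8%. These shares lay near those of the whole table and are no result about the RIKEN and Gm transcripts.

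The median log2 fold change was -0.17 for the 248 transcripts and -0.11 for all transcripts tested. The groups did not overlap for 175 of the 248, 44 of them higher and 131 lower at 16.8 mM, while 70.4% of all transcripts tested did not overlap (22.2% higher and 48.3% lower). A mean of at least 1 RPKM in both groups was reached by 226 of the 248, of which 16 were higher and 60 were lower. The other 22 passed the level only through the group in which they were higher, so that their group means had to differ, though not by any set amount. An example that was not called is 4933439C10Rik (limma adjusted p = 0.158). A log2 fold change of at least 1 in either direction was reached by 9 of the called transcripts, 5 higher and 4 lower. The balance of directions depended on the scaling. Rises were 23.9% of the calls with the values as deposited and between 34.3% and 38.2% with other scalings. Over all transcripts tested, calls of a rise also grew, from 838 with the values as deposited to between 1543 and 1662 with the other scalings. Without the second 16.8 mM library, the median log2 fold change was -0.11 for the 248 and -0.06 for all transcripts tested. By level, 33 of the 109 transcripts between 1 and 2 RPKM and 12 of the 33 at 10 RPKM or more were called (30.3% and 36.4%), beside 33.5% and 31.5% of all transcripts tested at the same levels.

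**Figure D1:**
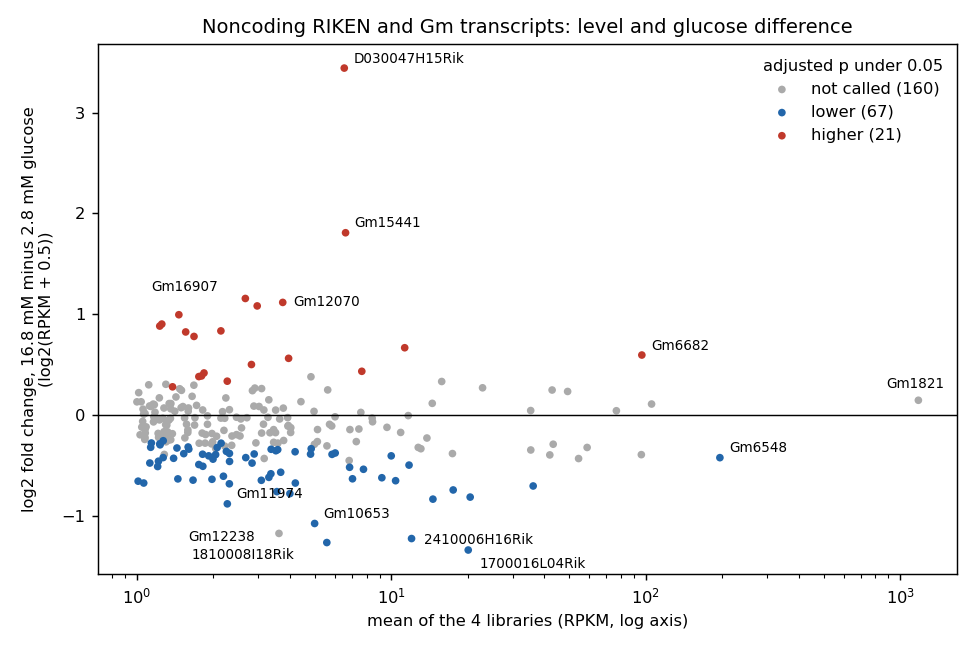
The 248 noncoding RIKEN and Gm transcripts, with the mean of the 4 libraries on the horizontal log axis in RPKM and the log2 fold change (16.8 mM minus 2.8 mM glucose) on the vertical axis. Each point is 1 transcript, in red for the 21 called higher, in blue for the 67 called lower and in grey for the 160 not called. D030047H15Rik stands highest at 3.44 and 1700016L04Rik lowest at -1.34, while Gm1821, far to the right, lies near 0.

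The 10 largest rises with no overlap between the groups began with D030047H15Rik, an lncRNA on the opposite strand of Ttyh1, which encodes a chloride channel of the tweety family (NCBIM37, chr7:4077942-4088528, minus strand). It stood at 0.793 and 0.585 RPKM in the 2.8 mM libraries and at 12.3 and 12.5 RPKM in the 16.8 mM libraries, a log2 fold change of 3.44 ± 0.11 (SE, limma adjusted p = 1.8e-05). Gm15441 lies opposite to Txnip (NCBIM37, chr3:96359688-96370724, minus strand) and stood at 2.75 and 2.57 RPKM against 10.8 and 10.3 RPKM, a log2 fold change of 1.81 ± 0.10 (adjusted p = 9.0e-05 in limma). No other transcript of the set rose by more than 1.16 on the log2 scale. D030047H15Rik, like Gm10941, Gm10560, Gm8801 and 1810019D21Rik, was under 1 RPKM at 2.8 mM and reached the level only through the 16.8 mM libraries, and Gm15441 had the largest rise among the 226 transcripts at 1 RPKM or more in both groups.

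The other 8 rises were smaller. Gm16907 stood at 1.57 and 1.34 RPKM at 2.8 mM and at 4.42 and 3.35 RPKM at 16.8 mM (log2 fold change 1.16 ± 0.13 SE). Gm12070, a pseudogene of the glycolytic enzyme Gapdh, stood at 2.16 and 2.20 RPKM against 5.24 and 5.39 RPKM (1.12 ± 0.09). G630055G22Rik, which overlaps the enolase gene Eno1b, stood at 1.41 and 2.07 RPKM against 4.64 and 3.78 RPKM (1.08 ± 0.16). In each of these the lower of the 16.8 mM libraries was above the higher of the 2.8 mM libraries, which the choice of the list required. Gm10941 (log2 fold change 0.99), Gm10560 (0.90), Gm8801 (0.88), 1700042O10Rik (0.83) and 1810019D21Rik (0.82) completed the list, at means between 0.718 and 1.39 RPKM at 2.8 mM.

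The largest fall was that of 1700016L04Rik, an lncRNA whose span covers Gje1, a gene of the connexin family listed at no more than 0.0529 RPKM. It stood at 28.4 and 29.6 RPKM in the 2.8 mM libraries and at 11.8 and 10.6 RPKM in the 16.8 mM libraries (log2 fold change -1.34 ± 0.12 SE, limma adjusted p = 0.0006). 1810008I18Rik, between genes next to the protease gene Pcsk6, stood at 8.60 and 7.60 RPKM against 2.86 and 3.28 RPKM (-1.27 ± 0.11, adjusted p = 0.0006). The third was 2410006H16Rik, which carries 3 small nucleolar RNAs, at 18.4 and 15.7 RPKM against 7.45 and 6.53 RPKM (-1.23 ± 0.13, adjusted p = 0.0011). The mean at 2.8 mM was 2.60, 2.64 and 2.44 times that at 16.8 mM. The groups did not overlap in any of the 3, as the falls were also chosen among calls without overlap.

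Next came Gm10653, opposite to Cln6, which encodes a protein of the endoplasmic reticulum, at 6.95 and 6.98 RPKM against 3.07 and 3.00 RPKM (log2 fold change -1.08 ± 0.09 SE). Gm11974, now Snhg15, a host transcript of a small nucleolar RNA by its name, stood at 3.08 and 3.10 RPKM against 1.54 and 1.35 RPKM (-0.88 ± 0.09). The replicates of either group lay close together beside the distance between the groups. Gm13498, a pseudogene of the chaperone Hsp90ab1, had a log2 fold change of -0.84, Gm5088 of -0.82, 1700007L15Rik of -0.78, 2700046G09Rik of -0.76 and F630206G17Rik of -0.75. Gm5088 (26.1 and 26.3 RPKM against 14.5 and 14.8 RPKM) and F630206G17Rik (22.1 and 21.97 RPKM against 13.9 and 12.1 RPKM) were the most abundant of these.

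**Figure D2:**
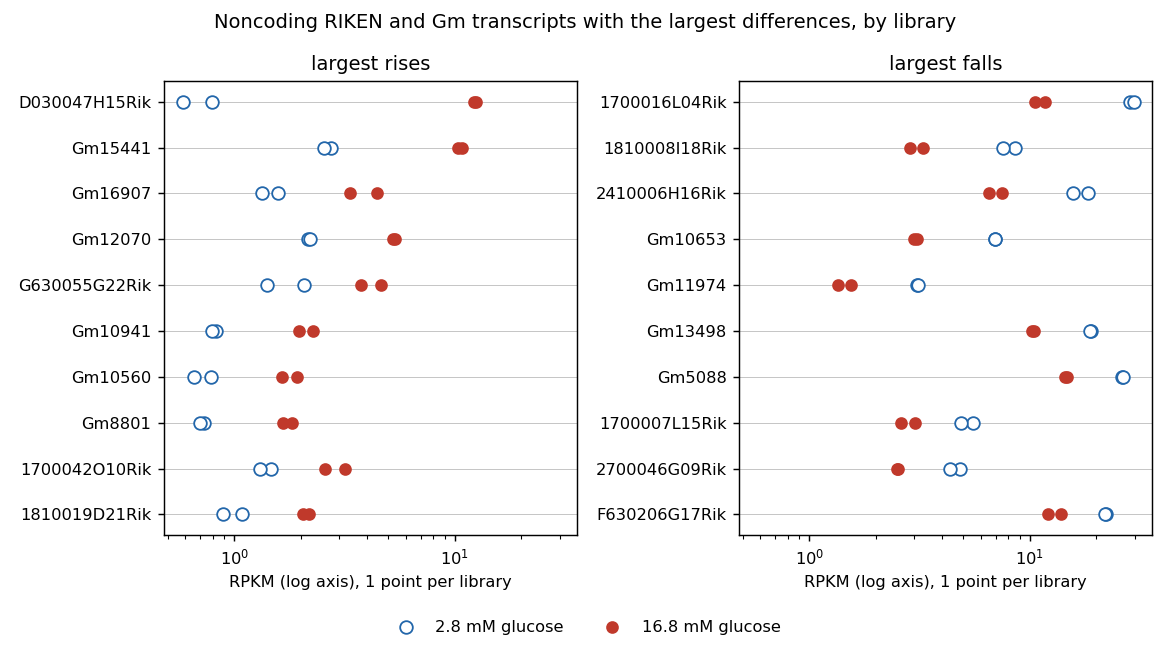
RPKM of the 10 largest rises (left) and the 10 largest falls (right) on a log axis, with 1 point per library, open for 2.8 mM and filled for 16.8 mM glucose. Rows were chosen among calls without overlap, so the pair of filled points lies apart from the pair of open points in every row. The points run from 0.585 to 12.5 RPKM in D030047H15Rik at the top left and from 29.6 to 10.6 RPKM in 1700016L04Rik at the top right.

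The rises were set beside the coding genes that the transcripts overlap. Reads were reconstructed from RPKM, the genomic span and the depth, since the values were found to be scaled to the span from the first to the last base, introns included. In the 2.8 mM libraries Gm15441 then had 1777 and 1472 reads, beside 1762 and 1460 for Txnip. At 16.8 mM it had 7239 and 5791, beside 7211 and 5767 for Txnip. The reads listed for the coding gene thus amounted to 99.2% of those listed for Gm15441 at 2.8 mM and to 99.6% at 16.8 mM. D030047H15Rik had 491 and 322 reads in the 2.8 mM libraries against 7902 and 6711 in the 16.8 mM libraries, and those of Ttyh1 amounted to 96.4% and 99.5% of them.

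Because neither the kit nor the sources mark the strand of a read, the reads of Gm15441 and Txnip, or of D030047H15Rik and Ttyh1, cannot be told apart. In all, 9 of the 248 transcripts held reads within 10% of those of the overlapping coding gene. G630055G22Rik, with Eno1b at 93.7% and 93.9% of its reads, was the third of them among the largest rises, and Gm10653, with Cln6 at 103% and 104%, was among the largest falls. The other 5 were G630025P09Rik with Tmem102, 4930549G23Rik with Seh1l, Gm16845 with Ecsit, Gm16023 with Slc35e2 and 9430060I03Rik with Capn10. Outside these 9, 1700042O10Rik stood in a ratio to Ddc, the decarboxylase of dopamine and serotonin synthesis, that varied by a factor of only 1.02 over the 4 libraries.

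Over all 108 transcripts opposite to a coding gene, the log2 fold changes of the transcript and the coding gene gave a Pearson r of 0.82 and a Spearman rho of 0.59, and without D030047H15Rik a Pearson r of 0.69. These are correlations across genes whose values come from the same libraries and partly from the same reads, and they are given as a description. For the 28 head-to-head pairs Pearson r was 0.48, and for the 89 transcripts between genes and their nearest coding gene it was 0.02. The ratio of the transcript to the coding gene varied by less than 5% over the libraries in 14 of the 108 opposite-strand pairs, in 0 of the 28 head-to-head pairs and in 0 of 82 pairs between genes.

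Of the transcripts that overlap a coding gene, 45 were called. The share was 34.3% on the opposite strand and 36.4% in both other overlap classes, beside 33.4% of all transcripts tested. Among these 45, the coding gene was called in the same direction in 19 and in the opposite direction in 1. It was not called in 5 and was under the level of 1 RPKM in 20. Values scaled to the span with introns can lie under this level for a long gene that holds reads. The 1 opposite pair was 1700045H11Rik, at 1.90 and 1.75 RPKM at 2.8 mM and 1.43 and 1.30 RPKM at 16.8 mM, and Errfi1, a feedback inhibitor of the epidermal growth factor receptor, at 1.67 and 1.66 RPKM and 3.88 and 3.44 RPKM. The log2 fold change was -0.32 ± 0.09 (SE, limma adjusted p = 0.0282) for the transcript and 0.94 (limma adjusted p = 0.000779) for Errfi1. The call of 1700045H11Rik was lost without the first 2.8 mM library (limma adjusted p = 0.154) or the second 16.8 mM library (0.109). A rise beside a coding gene that was not called was that of 9330179D12Rik, opposite to the cyclin gene Ccnd2, at 0.989 and 1.22 RPKM against 2.45 and 2.06 RPKM (log2 fold change 0.78 ± 0.11 SE), while Ccnd2 had a log2 fold change of -0.32 (limma adjusted p = 0.0731). These pairs were picked after their values were seen.

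**Figure D3:**
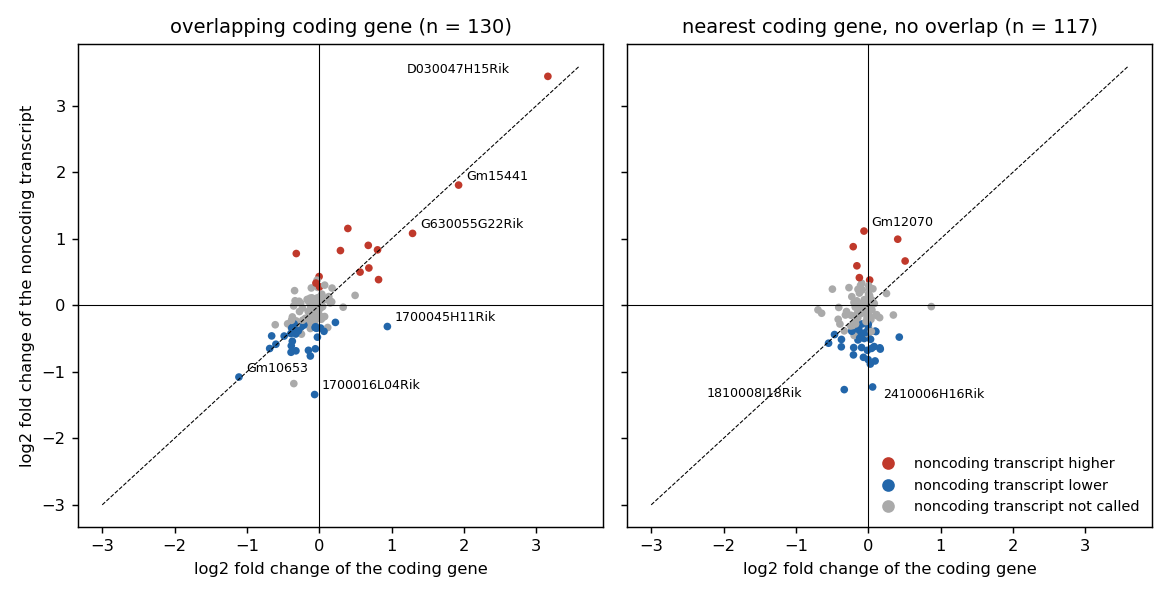
Log2 fold change (16.8 mM minus 2.8 mM glucose) of the noncoding transcript against that of its coding gene, for 130 transcripts that overlap one (left) and 117 that do not and are shown with the nearest (right), with the diagonal dashed. Points are coloured by the call of the noncoding transcript. On the left the largest rises lie along the diagonal, with D030047H15Rik at 3.44 and Gm15441 at 1.81, and on the right no such line is seen.

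Pseudogenes were compared with the coding transcripts they copy. Exons from the annotation of the files' build were at hand for 184 transcripts, and 40 of these aligned to a coding transcript over at least 50% of their bases. Of the 40, 2 were higher, 10 were lower and 28 were not called, a share of 30.0% against 33.4% of all transcripts tested. Log2 fold changes of the copies and their coding genes gave a Pearson r of 0.88 and a Spearman rho of 0.89 across the 40 pairs, which share libraries and, by their sequence, reads. Of the 12 called copies, 8 had a coding gene called in the same direction, 1 had a coding gene not called and 3 had a coding gene under the level.

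A stretch of the pseudogene Gm12070 (NCBIM37, chr11:26686953-26687032, plus strand) is shown beside the aligned stretch of the Gapdh messenger RNA (bases 413 to 492 of its transcript in the annotation) because the pair illustrates how little separates a copy from its gene. Capitals mark the 1 base that differs.
Gm12070: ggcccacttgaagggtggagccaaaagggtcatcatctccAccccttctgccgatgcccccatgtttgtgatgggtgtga
Gapdh: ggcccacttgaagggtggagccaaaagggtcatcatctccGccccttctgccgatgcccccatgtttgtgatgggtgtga
Over the whole alignment the identity was 99.9%, and 94.8% of the windows of 50 bases, the read length, were identical to a coding transcript. Gapdh stood at 6.48 and 7.54 RPKM in the 2.8 mM libraries and at 20.02 and 15.3 RPKM in the 16.8 mM libraries (log2 fold change 1.26), beside 1.12 for Gm12070. The ratio of the copy to Gapdh varied by a factor of 1.35 over the libraries.

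Gm13498 (NCBIM37, chr2:50767056-50767135, plus strand) is the contrasting case, a more diverged copy of Hsp90ab1 (bases 1967 to 2046 of its transcript) in which capitals mark 8 differing bases over the same length.
Gm13498: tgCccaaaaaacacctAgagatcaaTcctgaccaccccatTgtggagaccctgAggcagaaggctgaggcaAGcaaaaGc
Hsp90ab1: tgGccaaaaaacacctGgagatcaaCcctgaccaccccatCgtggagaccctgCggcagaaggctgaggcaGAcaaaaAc
Here the identity was 88.8% and only 1.6% of the windows were identical to a coding transcript. Gm13498 stood at 18.9 and 18.8 RPKM at 2.8 mM and at 10.2 and 10.4 RPKM at 16.8 mM, and Hsp90ab1 at 227 and 237 RPKM and at 136 and 129 RPKM. Their log2 fold changes were -0.84 and -0.81, and the ratio of the copy to its gene varied by a factor of 1.101. Whether reads of Hsp90ab1 were counted for the copy was not tested.

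Across the 40 copies, the ratio to the coding gene varied by less than 5% in 16. It did so in 14 of the 21 copies that share at least 50% of their windows with a coding transcript and in 2 of the 19 that share fewer. Gm6644 and Akr1b3, an aldose reductase, stood in the same ratio of 1.0037 in all 4 libraries. Gm7334 and the antiproliferative gene Btg3 gave ratios between 1.0015 and 1.0018. Whether both entries of such a pair count the same reads was not tested. Gm1821 stood at 1217, 1028, 1260 and 1214 RPKM in the 4 libraries in the order of the groups, and its ratio to Ubb lay between 1.32 and 1.34. It was not called (log2 fold change 0.15 ± 0.13 SE, limma adjusted p = 0.415). Of the other high copies, Gm6548 was lower at 16.8 mM (234 and 215 RPKM against 171 and 163 RPKM, log2 fold change -0.42, as Eef1a1 with -0.44), and Gm6682 was higher (81.9 and 72.0 RPKM against 119 and 114 RPKM, log2 fold change 0.59, as Tuba1a with 0.73). The call of Gm6548 was lost without the first 2.8 mM library or without either 16.8 mM library (limma adjusted p = 0.124, 0.18 and 0.279), and that of Gm6682 without either 16.8 mM library (limma adjusted p = 0.0963 and 0.0813).

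**Figure D4:**
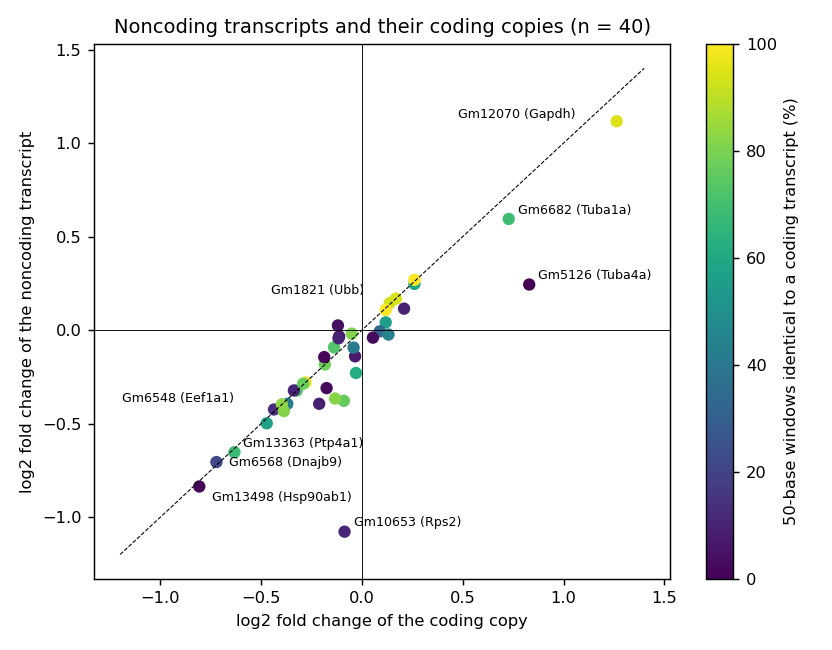
Log2 fold change (16.8 mM minus 2.8 mM glucose) of 40 noncoding transcripts against that of the coding gene they copy, coloured by the percentage of their 50-base windows that are identical to a coding transcript, with the diagonal dashed. Most points lie near the diagonal, whereas Gm10653 lies off it at -1.08 beside -0.09 for Rps2. The labelled points include some chosen after their values were seen.

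Gm10653 is listed as a pseudogene and aligned to Rps2, a ribosomal protein gene, over 72.0% of its exon bases at 91.3% identity. Its levels did not follow those of Rps2 (49.5 and 39.2 RPKM at 2.8 mM, 43.0 and 40.0 RPKM at 16.8 mM) but kept a ratio to Cln6, which it overlaps, that varied by a factor of 1.01. Cln6 stood at 11.1 and 11.2 RPKM and at 4.95 and 4.84 RPKM, a log2 fold change of -1.11.

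Small RNA hosts formed another group. The spans of 6 transcripts held a listed microRNA or small nucleolar RNA on the same strand. Of the 6, 2 were lower at 16.8 mM, beside 22.8% of all transcripts tested. With 6 transcripts, this count is no result about hosts. 2410006H16Rik carries Snord49b, Snord49a and Snord65, box C/D RNAs that guide the methylation of ribosomal RNA. Their sequences from the genome of the files' build (NCBIM37, plus strand, chr11:62416581-62416652, chr11:62416952-62417023 and chr11:62418017-62418088) are shown because all of them fell with their host, and capitals mark the box C match (ATGATGA or GTGATGA) and the box D match (CTGA).
Snord49b: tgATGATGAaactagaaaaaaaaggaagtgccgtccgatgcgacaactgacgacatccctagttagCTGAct
Snord49a: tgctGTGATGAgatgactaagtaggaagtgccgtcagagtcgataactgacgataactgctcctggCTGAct
Snord65: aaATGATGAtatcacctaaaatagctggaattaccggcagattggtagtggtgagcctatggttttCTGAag
Snord49b stood at 63.5 and 53.4 RPKM at 2.8 mM and at 28.4 and 19.4 RPKM at 16.8 mM (log2 fold change -1.29 ± 0.20 SE, limma adjusted p = 0.00412). Snord49a stood at 47.4 and 42.3 RPKM against 21.6 and 18.7 RPKM (-1.14 ± 0.14, adjusted p = 0.00173). Snord65 stood at 37.0 and 32.6 RPKM against 17.1 and 13.4 RPKM (-1.18 ± 0.16, adjusted p = 0.00233). The groups did not overlap in any of them, and the size of the fall was near that of the host, -1.23. As these RNAs lie inside the span of the host, reads of the small RNA and of the host transcript cannot be told apart, and the 4 values are not independent.

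A330023F24Rik spans the microRNA genes Mir29b-2 and Mir29c, whose mature 3′ products share a seed (bases 2 to 8, in capitals; RefSeq, GRCm38.p6).
mmu-miR-29b-3p: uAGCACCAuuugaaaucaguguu
mmu-miR-29c-3p: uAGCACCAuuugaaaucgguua
The host stood at 2.44 and 2.93 RPKM at 2.8 mM and at 2.15 and 1.73 RPKM at 16.8 mM, a log2 fold change of -0.38 ± 0.12 (SE, limma adjusted p = 0.0488). This call was lost without the second library of either group (limma adjusted p = 0.177 and 0.191), under each of the other scalings (from 0.119 to 0.132), with no variance trend (0.0614) and with no minimum level (0.200). The entry of Mir29b-2 was lower (8.98 and 10.8 RPKM against 6.79 and 5.17 RPKM, limma adjusted p = 0.0165), and that of Mir29c stood at 13.8 and 15.9 RPKM against 14.6 and 9.50 RPKM and was not called. Such entries hold reads over the hairpin region in a library of long RNA and do not measure the mature microRNA.

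Gm11974 (Snhg15) and 9430008C03Rik (Snhg17), hosts by name, were not counted here because no small RNA entry was found in their spans. Both were called lower (log2 fold change -0.88 and -0.64). The remaining hosts with such an entry were not called. They were 2810008D09Rik, now Snhg20 (log2 fold change -0.03 ± 0.12 SE), 1110038B12Rik with Snord52 (-0.04 ± 0.10), 2900076A07Rik with Mir1839 (-0.15 ± 0.09) and C230091D08Rik, part of the Snhg14 locus with Snord64 and the Snord116 cluster (-0.03 ± 0.09). The sign of 3 of these, 2900076A07Rik being the exception, changed with the scaling. Gm12238, the transcript now listed as a small nucleolar RNA, stood at 4.87 and 4.69 RPKM against 4.29 and 0.640 RPKM, and only 4 reads lay behind the last value. It was not called (log2 fold change -1.18 ± 0.56 SE, limma adjusted p = 0.143).

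Head-to-head transcripts share a promoter region with a coding gene, and 28 were of this kind. Of these, 1 was higher and 9 were lower at 16.8 mM, a share called of 35.7%, near the 33.4% of all transcripts tested. The higher one was Gm10941, at 0.826 and 0.796 RPKM at 2.8 mM and at 1.97 and 2.27 RPKM at 16.8 mM (log2 fold change 0.99 ± 0.09 SE, limma adjusted p = 0.000571), whose start lies 77 bases from that of Pofut2, which encodes a fucosyltransferase. Pofut2 was also called higher, with a log2 fold change of 0.41, and was the only coding gene of the 10 called pairs to pass the test. The coding genes of the other pairs were not called in 4 and lay under 1 RPKM in 5, on a scale that includes introns.

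The falls were led by 1700007L15Rik, 48 bases from the zinc finger gene Zfp148, at 5.51 and 4.87 RPKM against 3.01 and 2.61 RPKM (log2 fold change -0.78 ± 0.11 SE), and by 4930599N23Rik, 59 bases from Parp12, at 1.95 and 1.80 RPKM against 1.04 and 1.01 RPKM (-0.64 ± 0.08). Zfp148 lay between 0.465 and 0.540 RPKM and Parp12 between 0.714 and 0.959 RPKM over the 4 libraries, scaled to their spans with introns. 0610009L18Rik, 136 bases from the actin gene Actg1, stood at 1.61 and 1.41 RPKM against 0.977 and 0.839 RPKM (-0.51 ± 0.09), while Actg1 had a log2 fold change of -0.37 (limma adjusted p = 0.065). 0610009L18Rik was under 1 RPKM at 16.8 mM and reached the level only through the 2.8 mM libraries. The log2 fold change was -0.52 for 2810013P06Rik, -0.49 for Gm9776, -0.44 for Gm13375, -0.42 for 2900005J15Rik, -0.39 for 4933421O10Rik and -0.28 for 4930506C21Rik. Without the second 16.8 mM library 4 of these calls were lost, 2810013P06Rik (limma adjusted p = 0.116), 2900005J15Rik (0.0506), 4933421O10Rik (0.107) and 4930506C21Rik (0.173). The call of 2900005J15Rik was also lost without the second 2.8 mM library (limma adjusted p = 0.137) and under each of the other scalings (from 0.0877 to 0.102), that of 4933421O10Rik without the first (0.218), and that of 4930506C21Rik without any one of the other libraries (from 0.066 to 0.283).

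Some transcripts overlapped no other listed gene, and fewer were also found to share no exon window with a coding transcript. Of the 248, 98 overlapped no other listed gene, and of these 7 were higher and 33 were lower, which is 40.8% called. These were 7.14% higher and 33.7% lower, beside 10.7% and 22.8% of all transcripts tested. A group of 31 of these also held no window of 50 exon bases identical to a coding transcript. Of the 31, 1 was higher, 12 were lower and 18 were not called, which is 41.9% called beside 33.4% of all transcripts tested. By direction, 3.23% were higher and 38.7% lower, beside 10.7% and 22.8%. Transcripts without exons in the annotation, such as 1810008I18Rik, were not examined for windows and were left out. Introns, which the values include, were not examined. The group was chosen after the data were seen, and its shares were not tested. The lower ones of the 31 included Gm11974, 1700007L15Rik and F630206G17Rik, given above, and Gm13003 at 1.26 and 1.45 RPKM against 0.677 and 0.668 RPKM. Gm13003 was under 1 RPKM at 16.8 mM and reached the level only through the 2.8 mM libraries, so its group means had to differ. Others of this group, listed after their values were seen, were C920006O11Rik (log2 fold change -0.65), 9430008C03Rik, now Snhg17 (-0.64), 2410004N09Rik, now Epb41l4aos (-0.62), 2310015A10Rik (-0.48) and 1500011K16Rik, now Mtln (-0.41). The call of the last was lost without the first 2.8 mM library or without either 16.8 mM library (limma adjusted p from 0.0744 to 0.226). The 1 higher was 2810410L24Rik, at 1.68 and 1.33 RPKM against 2.22 and 2.11 RPKM (log2 fold change 0.42 ± 0.10 SE, limma adjusted p = 0.0231, but 0.137 without the second 2.8 mM library). Norad, a regulator of genome stability listed as 2900097C17Rik, stood at 35.5, 34.1, 35.7 and 36.0 RPKM in the 4 libraries and was not called (log2 fold change 0.04 ± 0.12 SE).

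Promoters of 153 of the transcripts were found in the RefSeq table (GRCm38.p6), from 250 bases before to 50 bases after the start. On either strand, the words CACGTG (the E-box, bound by factors such as USF and MYC), TGACGTCA (the cAMP response element), TGATGNAA (a core of the amino acid response element), TATAAA (the TATA box), CCAAT (a box bound by nuclear factor Y) and GGGCGG (the GC box, bound by Sp1) were searched, and no word contains another. CACGTG was present in 5.23% of the 153, in 7.24% of all 27025 promoters and in 11.5% of the promoters of symbols tested. By call it was present in 5 of 43 promoters of lower transcripts, in 1 of 12 of higher ones and in 2 of 98 of those not called. The median GC content was 61.0% in the 153 promoters, 71.7% in the 26 head-to-head ones and 60.7% in the promoters of symbols tested. GGGCGG was present in 55.6%, 73.1% and 65.8% of the same groups.

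A pair of these promoters is shown because the transcripts were among the 10 largest falls and their windows hold CACGTG together with a response element word (TGATGNAA or TGACGTCA), with the words in capitals. That of 1810008I18Rik (GRCm38.p6, chr7:65802787-65803086, plus strand) holds TGATGCAA from 24 bases before the start and CACGTG from 8 bases after it.
1810008I18Rik: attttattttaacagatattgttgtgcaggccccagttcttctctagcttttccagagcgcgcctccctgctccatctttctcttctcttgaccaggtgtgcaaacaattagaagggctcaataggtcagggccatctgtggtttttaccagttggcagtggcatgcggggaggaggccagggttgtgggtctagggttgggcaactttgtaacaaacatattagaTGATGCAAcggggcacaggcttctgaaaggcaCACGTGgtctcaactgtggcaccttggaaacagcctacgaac
That of Gm11974 (GRCm38.p6, chr11:6528711-6529010, minus strand) holds TGACGTCA from 88 bases before the start, GGGCGG from 52 bases before it and CACGTG from 11 bases after it.
Gm11974: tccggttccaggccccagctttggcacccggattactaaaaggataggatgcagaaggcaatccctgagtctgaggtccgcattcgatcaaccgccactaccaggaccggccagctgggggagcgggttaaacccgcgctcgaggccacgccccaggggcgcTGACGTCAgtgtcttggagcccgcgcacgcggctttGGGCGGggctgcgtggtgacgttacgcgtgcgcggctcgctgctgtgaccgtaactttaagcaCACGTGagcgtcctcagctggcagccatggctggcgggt
Among the other largest falls with a promoter in the table, F630206G17Rik held CACGTG and CCAAT. In contrast, 2410006H16Rik held only GGGCGG, 2700046G09Rik held only CCAAT, and 1700016L04Rik and 1700007L15Rik held none of the 6 words. A match is a description of the letters and not of a bound site.

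Against other noncoding classes of the same table, the RIKEN and Gm transcripts had a smaller median difference, and a slightly larger one than coding transcripts. The median absolute log2 fold change was 0.26 for the 248, 0.22 for 6739 coding transcripts, 0.32 for 831 other NR_ transcripts, 0.46 for the 37 lncRNAs assembled in the study itself that reached the level and 0.46 for the 19 noncoding genes listed by name that did so. These medians were not tested against each other. Of those 37, 26 were called (11 higher and 15 lower), against 88 of the 248. The 831 other NR_ transcripts had the larger median but not more calls, with 32.0% called against 35.5% of the 248. Their groups did not overlap for 476 of the 831, against 175 of the 248. Among the 19 genes listed by name, 10 were called. The higher ones were Meg3, Rian and Mirg of the imprinted Dlk1-Dio3 region, H19 and Nespas, and the lower ones were Malat1 and the small nucleolar RNA hosts Snhg1, Snhg5, Snhg6 and Snhg12. Snhg5 had a log2 fold change of -0.93 and Snhg12 of -0.64, beside -0.88 for Gm11974 (Snhg15) and -0.64 for 9430008C03Rik (Snhg17). Gas5, Snhg3, Snhg4, Snhg7, Snhg8 and Snhg11 were not called, nor was 2810008D09Rik (Snhg20), so that hosts of this kind did not all pass the test.

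The depth behind the values differed between transcripts. The median over the transcripts of the lowest reads in any library was 397, and 26 transcripts held fewer than 100 reads in at least 1 library. Intervals from counting were not formed, because reads without molecular identifiers are not independent molecules.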

How the data were processed

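For the 4 islet libraries (total RNA, TruSeq RNA v2 kit, 50-cycle reads) RPKM values were deposited by the authors in a table of 33923 entries. The submitters' processing notes name the mm9 genome, STAR, bedtools and DESeq, without versions. Whether strand was used in counting is not given in the sources used here. The planned design allowed for counts or RPKM, and the test for RPKM was used.

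Where a gene had identical entries, 1 was kept. The fit was made with limma 3.58.1 on log2(RPKM + 0.5) of entries averaging 1 RPKM or more (R 4.3.3; variance trend, empirical Bayes, two-sided, Benjamini-Hochberg over 7867 transcripts), and the script was tested on simulated data. Depth was recovered from small RNA entries, of which between 97.3% and 97.7% were whole reads within 0.05 reads. Low coding entries were whole in 73.1% to 74.7% with the genomic span and in 14.1% to 16.3% with the exons, so reads were reconstructed with spans.

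Positions came from GENCODE vM1 (NCBIM37) for 184 transcripts and from the RefSeq table, GRCm38.p6, for 63. Copies were found with BLAST+ 2.17.0 against coding transcripts. Python 3.11.15, pandas 2.3.3, numpy 2.4.6, SciPy 1.17.1, Biopython 1.88 and matplotlib 3.10.9 were used.

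Transcripts named were the 10 of highest mean, the 10 largest rises and falls among calls without overlap, hosts of small RNAs, called head-to-head transcripts and those beside the limit of level. Members and lists were chosen with earlier results of these data known. Alternatives were other added values, filters, scalings, the replicate block, voom on reconstructed reads, stricter thresholds, subsets of transcripts and leaving out each library. Columns of sample values left unused numbered 0.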

Additional observations from a re-analysis of the deposited data

How the results depend on the processing

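The 88 calls fell to 35 (7 higher, 28 lower) with no minimum level, where 2562 of all 28047 transcripts (9.13%) were called. They fell to 44 (12 higher, 32 lower) at an adjusted p under 0.01. They fell to 40 (7 higher, 33 lower) among transcripts that overlap no other listed gene. Among those also found to share no 50-base exon window with a coding transcript they numbered 13 (1 higher, 12 lower). This last subset was chosen after seeing the data and holds only transcripts whose exons were at hand. Fewer transcripts were counted in both of these subsets. Calls of a rise numbered 40 with quantile normalization, 42 with each library centred on its median and 35 without the 10 most abundant transcripts in the scaling, in place of 21. Over all transcripts tested they numbered 1576, 1662 and 1543 in the same order, in place of 838. Leaving out 1 library gave between 60 and 91 calls, 15 to 26 higher and 37 to 73 lower, and between 1825 and 2579 calls over all transcripts in place of 2628. The fewest falls, 37, came without the second 16.8 mM library. A lone library of a group was assumed to vary like the other group.

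With the replicate block the calls were 126 (29 higher, 97 lower) and 4067 over all transcripts. Of the called named transcripts only A330023F24Rik lost its call (limma adjusted p = 0.102). The fits with voom on reconstructed reads tested 19279 transcripts, in place of 7867, so their numbers of calls are not directly comparable. With voom 8007 of these (41.5%) were called, and with voom and the replicate block 10880 (56.4%), in place of 33.4%. Of the 246 RIKEN and Gm transcripts tested with voom, 106 were called (25 higher, 81 lower). With voom and the replicate block 131 of the 246 were called (30 higher, 101 lower). The deviations of same-numbered libraries had a correlation of 0.31 over 2 pairs, and no label says that a number marks a shared batch, so the libraries were taken to share only a number.

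Of 727 values of named transcripts under the alternatives, 632 kept their direction and side of the threshold, 38 lost and 38 gained the call, and 19 changed sign. None of those that changed sign was called, and the cause was not tested. With 1 library left out, the values of those that changed sign ranged from -0.156 to 0.075 for 1110038B12Rik, from -0.176 to 0.122 for 2810008D09Rik, from -0.117 to 0.049 for C230091D08Rik, from -0.026 to 0.285 for 4921531C22Rik, from -0.07 to 0.152 for Gm10012 and from -0.038 to 0.254 for Gm12338. Under quantile normalization, median centring and the scaling without the 10 most abundant transcripts the log2 fold change was 0.043, 0.044 and 0.036 for 1110038B12Rik, 0.069, 0.057 and 0.054 for 2810008D09Rik, and 0.052, 0.05 and 0.032 for C230091D08Rik; Gm1821 was at -0.0 under the first. Of the 32 called named transcripts, 19 kept their call under every alternative run.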
